A study of Mus musculus with 6 samples.

Results

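Early round spermatids were sought in mouse testis as droplet barcodes with a small but measurable share of acrosomal transcripts, and 228 barcodes of 34125 that passed the depth and mitochondrial limits met the rule. The files held 68400 barcodes in all. A member had at least 2500 unique molecular identifiers (UMIs, each 1 counted RNA molecule) and under 20% mitochondrial UMIs. Its 10 acrosomal genes (Acrv1, Spaca1, Spaca3, Spaca7, Lyzl1, Lyzl4, Lyzl6, Tex36, Izumo1 and Acr) together made at least 0.05% and under 0.2% of UMIs. Its 6 division genes made under 0.05%, its 8 pachytene genes under 0.1%, and its 4 protamine and transition protein genes under 1%. The data went against the label for 131 of the 228 barcodes, which fell into sub-clusters with the markers of another cell type. The other 97 had no round spermatid marker among their leading genes, which were ranked outside the rule's genes. That ranking left out every early round spermatid marker, so it could not have given these 97 the label. The set is therefore called the low-acrosomal barcodes here.

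The samples were whole testes of C57BL/6J males, 1 droplet library (10x 3′ v3) per mouse from both of its testes. The 3 control mice were fed normally. The 3 nicotine mice took nicotine at 200 µg/mL in drinking water for 8 weeks from 3 weeks of age, and all mice were 11 weeks old at sampling. The study compared cell proportions and transcription between these groups, and whole-testis suspensions hold germ cells beside Sertoli, Leydig, stromal and immune cells.

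Round spermatids are the haploid cells that follow the meiotic divisions. They build the acrosome, a secretory vesicle over the nucleus that carries the enzymes and membrane proteins of fertilisation, and switch on a post-meiotic gene program that includes targets of the activator CREM. Transition proteins and then protamines replace their histones later, as the nucleus elongates. Messenger RNA passes through cytoplasmic bridges between spermatids, and RNA freed from broken cells can enter droplets of any cell type.

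The mice contributed 28, 32 and 56 low-acrosomal barcodes in the controls and 23, 49 and 40 in the nicotine mice. No low-acrosomal barcode sequence occurred in the set of another mouse, and the 15 pairs of libraries shared 25 to 54 barcode sequences among all their barcodes. The 6 libraries held 67853893 to 88329607 UMIs in all. The 6 sums over low-acrosomal barcodes held 105071 to 270044 UMIs, and every pair of these sums differed by more than sampling noise. The sets are thin, so intervals on single shares cover counting error only.

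The 10 acrosomal genes chose the members, and their levels are given as a description with no test. The sperm-egg fusion gene Izumo1 had 35 UMIs over all 228 barcodes, or 34.6 counts per 1000000 UMIs (CPM), against 159.6 CPM in the 4393 barcodes that met the same rule but with an acrosomal share of at least 0.2%. The acrosomal matrix gene Acrv1 had 120.6 CPM against 788.7 CPM, the acrosomal membrane gene Spaca1 150.2 against 958.8 CPM, and the protease gene Acr 56.3 against 172.1 CPM. Tex36 had 133.4 against 1147 CPM, Spaca3 81.1 against 737.5 CPM and Spaca7 160.1 against 854.7 CPM. The lysozyme-like genes Lyzl1, Lyzl4 and Lyzl6 had 87.97, 60.3 and 75.1 CPM against 781.2, 391.8 and 903.6 CPM. A median member owed its place to 4 acrosomal UMIs (range 2 to 32): 100 members had 2 or 3 and 6 members had 10 or more. The median was 116 acrosomal UMIs in the high-acrosomal barcodes.

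Promoter sequences of 8 of the 10 acrosomal genes were matched in RefSeq for GRCm38.p6 (250 bases before to 50 after the start), and 2 are shown because they hold letters of the cAMP response element that CREM-family factors bind. Both strands were searched for TGACGTCA and for its 5-letter core TGACG, which the longer element contains. Capitals mark the matches, and sequences run 5′ to 3′ on the gene's strand.
Izumo1, chr7:45621561-45621860, plus strand: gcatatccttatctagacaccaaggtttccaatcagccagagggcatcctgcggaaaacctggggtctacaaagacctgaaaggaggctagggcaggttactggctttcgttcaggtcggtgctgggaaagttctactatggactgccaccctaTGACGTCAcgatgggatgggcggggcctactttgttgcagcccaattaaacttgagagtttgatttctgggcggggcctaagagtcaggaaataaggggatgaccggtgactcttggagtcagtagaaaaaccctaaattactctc
Spaca1, chr4:34050016-34050315, minus strand: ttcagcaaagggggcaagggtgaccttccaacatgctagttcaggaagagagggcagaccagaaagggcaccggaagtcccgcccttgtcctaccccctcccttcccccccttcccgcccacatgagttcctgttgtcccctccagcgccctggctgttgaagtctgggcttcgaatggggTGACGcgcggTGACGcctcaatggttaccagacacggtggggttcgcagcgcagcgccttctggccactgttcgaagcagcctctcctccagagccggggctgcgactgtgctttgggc
Of the 8 matched genes, Izumo1 alone held the full element, which 1.79% of all 32851 promoters held. Izumo1, Spaca1, Spaca3 and Tex36 held the core, as did 1 of the 3 listed promoters of Lyzl4 and 20.8% of all promoters. The match describes these letters only, and the barcode counts do not test binding.

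The other genes of the rule were low by construction. Among the division genes, the mitotic kinase gene Aurka had 59.3 CPM, the meiotic cyclin gene Ccna1 35.6 CPM, Cdk1 31.6 CPM, Plk1 27.7 CPM, Bub1b 20.8 CPM and Cdc25c 5.93 CPM. Among the pachytene genes, the chaperone gene Clgn had 177.9 CPM, Spata16 107.7 CPM, Dmrtc2 50.4 CPM, the Argonaute gene Piwil1 47.4 CPM, Pou5f2 35.6 CPM, Mybl1 18.8 CPM, the testis histone gene Hist1h1t 17.8 CPM and Meikin 14.8 CPM. The protamine genes Prm1 and Prm2 had 1801 and 1596 CPM and the transition protein genes Tnp1 and Tnp2 744.3 and 941.0 CPM, against 1012, 891.1, 974.8 and 835.1 CPM in the high-acrosomal barcodes.

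The limits of the rule removed nearly all deep barcodes. The acrosomal band held 8734 barcodes, of which 6895 failed the protamine limit. Of the 1839 left, 1067 failed both the pachytene and division limits, 383 failed the pachytene limit alone, 161 failed the division limit alone, and 228 passed. Among the 900 of these 1839 with at least 10000 UMIs, 10 passed. The nearest barcodes inside and outside the lower acrosomal limit had shares of 0.0501% and 0.0499%, with 36 members and 39 non-members within 0.01 percentage points of it. At the upper limit these shares were 0.1991% and 0.2001%, with 10 members and 11 non-members within the same distance. Somatic markers made at least 0.5% of UMIs in 63.9% of the 36 members near the lower limit and in none of the 10 near the upper limit.

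The low-acrosomal barcodes were shallow. They had a median of 3378 UMIs (range 2505 to 22974), against 16927 UMIs in the high-acrosomal barcodes, and 147 of them had under 4000 UMIs. At 2500 UMIs, 2 acrosomal UMIs are enough to enter the band, and acrosomal genes made 0.135% of UMIs even in barcodes with 500 to 1000 UMIs, which lies inside the band. Barcodes with strong markers of other cells entered it too. Of 411 barcodes with at least 1% of UMIs from Leydig markers, 44 lay in the acrosomal band and 36 were members; of 104 such macrophage barcodes, 34 lay in the band and 24 were members. Stromal markers gave 111, 27 and 15 barcodes, Sertoli markers 46, 19 and 8, and early spermatocyte markers 159, 36 and 20.

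Clustering the 228 barcodes on 2000 variable genes gave 8 sub-clusters, 7 of which carried the markers of a cell type other than a round spermatid. Sub-cluster 2 (36 barcodes) was Leydig-like. It was led by Ptgds, the steroidogenic genes Cyp17a1 and Cyp11a1, Agt and the Leydig hormone gene Insl3, with 11177 CPM of Ptgds and 4106 CPM of Insl3. Sub-cluster 6 (24 barcodes) was macrophage-like, led by the complement genes C1qa and C1qc, the lysozyme gene Lyz2 and the platelet factor gene Pf4, with 5253 CPM of C1qa. Sub-cluster 1 (18 barcodes) was stromal-like, led by the actin-severing gene Gsn and the proteoglycan gene Dcn, with the retinoic acid-degrading enzyme gene Cyp26b1, Adamts5 and Ccn2 next. Sub-cluster 3 (10 barcodes) was Sertoli-like, led by the cystatin genes Cst9 and Cst12 and the creatine synthesis gene Gatm. These 4 sub-clusters held 88 barcodes, or 38.6% of all.

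Sub-clusters 7 (19 barcodes) and 8 (10 barcodes) were early spermatocyte-like. Sub-cluster 7 was led by the synaptonemal complex genes Sycp3 and Sycp1 and by Tex101; sub-cluster 8 was led by Sdk1 and held the recombination genes Zcwpw1, Prdm9 and Dmc1 among its 10 leading genes. Sub-cluster 5 (14 barcodes) was elongating spermatid-like. It was led by 1700012A03Rik and by the sperm mitochondrial capsule gene Smcp at 42470 CPM, against 489.6 CPM over the other sub-clusters, with the kinase gene Tssk6 and the ornithine decarboxylase antizyme gene Oaz3 also in its leading 10. The genes that define a sub-cluster were among those clustered, so these levels are descriptions.

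**Figure D1:**
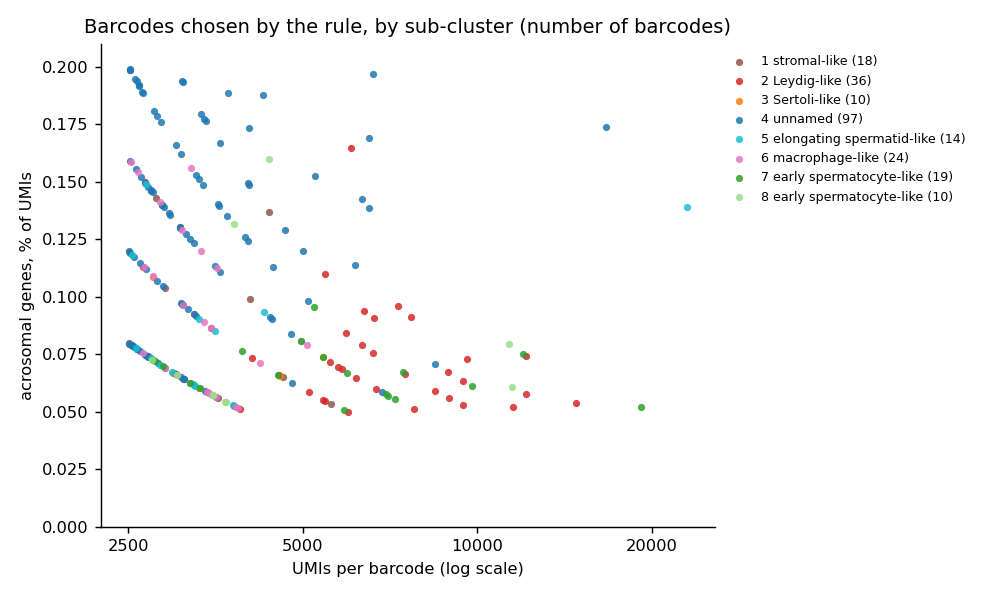
Each point is 1 of the 228 low-acrosomal barcodes, by UMIs per barcode (log scale) and by the percent of UMIs from the 10 acrosomal genes, coloured by sub-cluster. Points fall on curved lines because each curve is a fixed small number of acrosomal UMIs (2, 3, 4 and so on), and 147 barcodes lie under 4000 UMIs.

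Sub-cluster 4 held the other 97 barcodes (42.5%) and stayed unnamed. It was led by Fgf14, the liprin gene Ppfia2, Gm27211, Iqcm, 4933436I20Rik and the axonemal gene Spag16, and Cfap61, another axonemal gene, was ninth. Fgf14 reached 3343 CPM, against 70.8 CPM over the other sub-clusters. Leading genes were ranked outside the rule's genes. Those genes make up the whole pachytene, division and early round spermatid marker lists, so none of those names could be given. None of its leading 10 genes was a round spermatid marker, although 7 of 15 such markers outside the rule were raised in it. Its acrosomal share had a median of 0.135%, the highest of the 8 sub-clusters. The others had medians between 0.0635% and 0.0835%. Of the 94 members with an acrosomal share of at least 0.1%, 69 (73.4%) lay in sub-cluster 4 and 20 in the 4 somatic sub-clusters. Of the 134 with a lower share, 28 (20.9%) and 68 did.

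Sub-cluster 4 was compared on 15 round spermatid markers that the rule did not use. In sub-cluster 4, 14 of the 15 were above the 4 somatic sub-clusters, Spata25 being the exception. Likewise, 14 of 15 were below the high-acrosomal barcodes, and Tex21 was the exception. The transcription activator gene Crem had 107.4 CPM in the somatic sub-clusters, 442.6 CPM in sub-cluster 4 and 525.2 CPM in the high-acrosomal barcodes. The CatSper calcium channel gene Catsper3 had 4.67, 109.2 and 199.7 CPM, and the acrosomal gene Zpbp 95.7, 448.4 and 513.4 CPM. The spermatid histone gene Hils1 had 123.8, 224.2 and 1431 CPM, and the X-linked nuclear protein gene Tsga8 100.4, 166.7 and 1198 CPM. However, 9 of the 15 were higher in the division barcodes, those with division genes of at least 0.05%, than in sub-cluster 4. Among them Tbpl1 had 1404 against 571.9 CPM, the acrosomal gene Dkkl1 1334 against 640.9 CPM and Hils1 316.2 against 224.2 CPM. Levels are compared within a gene, since CPM of 3′ tags is not a scale between genes.

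**Figure D2:**
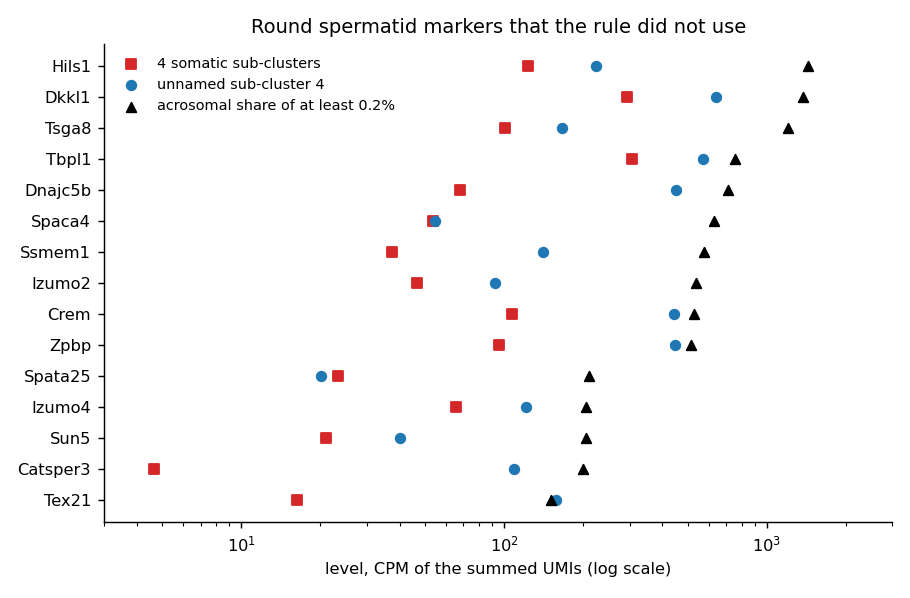
Levels of 15 round spermatid markers outside the rule (CPM of summed UMIs, log scale) in the 88 barcodes of the 4 somatic sub-clusters, the 97 barcodes of sub-cluster 4 and the 4393 barcodes with an acrosomal share of at least 0.2%. Blue circles lie right of red squares for 14 markers and left of black triangles for 14.

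Sub-cluster 4 was rich in transcripts of long genes. Genes spanning at least 100000 bases gave 23.5% of its UMIs, against 8.88% in the high-acrosomal barcodes and 9.23% in the 5775 barcodes with division genes of at least 0.05%. This was not particular to sub-cluster 4: early spermatocyte-like sub-cluster 8 had 19.5% and stromal-like sub-cluster 1 17.4%. The lowest share was 6.35%, in Sertoli-like sub-cluster 3. Genes on X gave 0.905% of the UMIs of sub-cluster 4 and genes on Y 0.0604%, against 1.30% and 0.0821% in the high-acrosomal barcodes. Across expressed genes its profile had a Spearman correlation of 0.35 with the high-acrosomal barcodes and 0.50 with the division barcodes. These are descriptions over genes of pooled libraries, with base composition and library shared between points.

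Compared with the high-acrosomal barcodes in each mouse, sub-cluster 4 was higher for Fgf14 (3376 ± 1035 against 77.7 ± 11.7 CPM, mean ± SD, n = 6 mice), Ppfia2, C730002L08Rik, Atrnl1, Gm32828, Gm16759, Gm20125 and mt-Co2. Of these, Fgf14 spans 699221 bases and Atrnl1, an attractin-like gene, 522310 bases. It was lower for the outer dense fibre gene Odf3 (47.0 ± 34.9 against 991.8 ± 49.4 CPM), Fam24b, 1700031L13Rik, Gm35216, 4930471G03Rik, 1700001P01Rik, Gtsf1l and the ubiquitin ligase adaptor gene Asb17. The naming rule required 1 direction in 6 of 6 mice, which 1591 genes met for the higher and 1459 for the lower side. Over all 228 members the genes furthest above the high-acrosomal barcodes were Fabp3 (4715 ± 1720 against 17.7 ± 16.4 CPM), Ptgds, Gstm1, Lcn2, Apoe, Akr1cl, Cyp17a1 and Agt. Furthest below were Odf3, 1700031L13Rik, Gtsf1l, 1700001P01Rik, the profilin gene Pfn3, 4930558C23Rik, Fam24b and 4930596D02Rik. Since the sets were selected by genes, no test was made.

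A split of the set at an acrosomal share of 0.1% uses the rule's own values, so it is a description; sub-cluster 4 lay mostly above it and the somatic sub-clusters mostly below. Members with an acrosomal share of at least 0.1% were higher than the rest for the protocadherin gene Pcdh9, the potassium channel partner gene Kcnip4, Ica1, Atp8a2, 4930448C13Rik, Ppfia2, Gm38505 and Gm1527. For Ica1 the means were 503.5 ± 172.1 and 54.3 ± 52.4 CPM. Members with a lower share were higher for Insl3, Lcn2, Agt, Cyp17a1, Cyp11a1, Ptgds, Hsd3b6 and Fabp3, which are all high in Leydig-like sub-cluster 2. For Lcn2 the means were 144.4 ± 170.4 CPM above the split and 3221 ± 1213 CPM below it. The naming rule required 1 direction in 6 of 6 mice, which 1077 genes met for the higher and 915 for the lower side.

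Low-acrosomal barcodes were rare in every mouse. The shares were 0.432%, 0.626% and 0.962% in the control mice and 0.423%, 0.894% and 0.691% in the nicotine mice, and the groups overlapped. The means were 0.673% ± 0.268 and 0.669% ± 0.236 (SD, n = 3 mice each; two-sided exact permutation p = 0.9). Medians of UMIs per member were 3355, 3243 and 3566 in controls and 3563, 3375 and 3173 in nicotine mice, which overlapped as well (exact permutation p = 0.9). In the acrosomal band of 0.075% to 0.15% the medians averaged 3499 and 3007 UMIs and did not overlap (exact permutation p = 0.1). The share of barcodes with at least 10000 UMIs did not overlap either, at a log2 ratio of -1.89 (exact permutation p = 0.1). It rested on 10 members, 2, 1 and 5 in controls and 1, 1 and 0 in nicotine mice. Taken over low- plus high-acrosomal barcodes, this share overlapped (exact permutation p = 0.3). With 3 mice against 3, the smallest p this test can give is 0.1.

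The makeup of the set also varied between mice. Somatic markers reached 0.5% of UMIs in 46.4%, 53.1% and 39.3% of members in the controls and in 39.1%, 32.7% and 30% in the nicotine mice. The groups did not overlap (46.3% ± 6.92 against 33.9% ± 4.70, exact permutation p = 0.1, the smallest possible). They overlapped in the acrosomal band of 0.075% to 0.15% (38.2% against 36.2%, exact permutation p = 1) and with at least 5000 UMIs (72.1% against 50.5%, exact permutation p = 0.2). Stromal-like sub-cluster 1 had 4, 2 and 7 control and 1, 3 and 1 nicotine barcodes, and Sertoli-like sub-cluster 3 had 2, 3 and 3 against 1, 1 and 0. Leydig-like sub-cluster 2 had 3, 6 and 8 against 5, 5 and 9, and macrophage-like sub-cluster 6 had 4, 5 and 5 against 2, 6 and 2. Sub-cluster 4 made 35.7%, 31.3% and 39.3% of members in controls and 34.8%, 55.1% and 50% in nicotine mice. Counts this small carry wide counting error, and in a whole-testis suspension the recovery of a cell type cannot be told apart from its number.

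**Figure D3:**
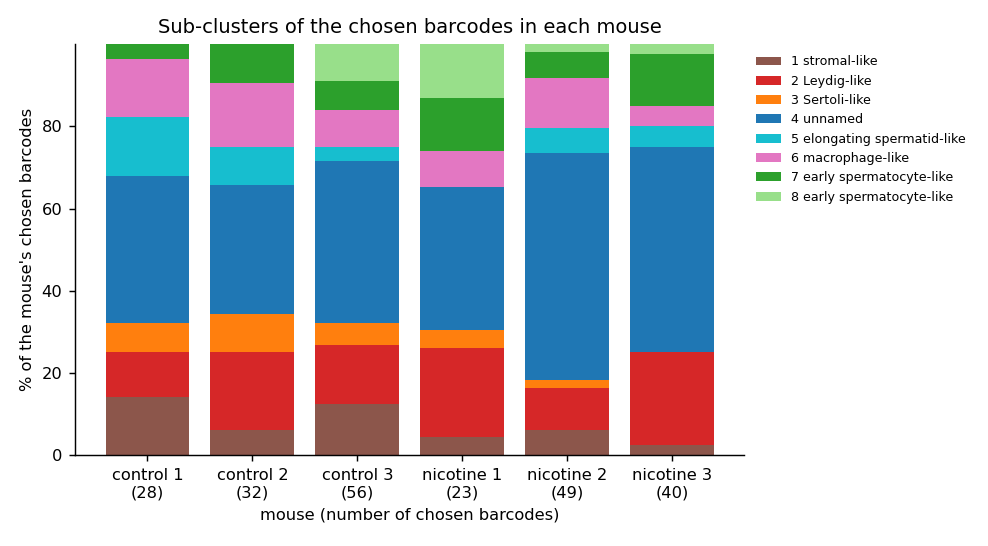
Stacked bars give the percent of each mouse's low-acrosomal barcodes in each of the 8 sub-clusters, with the number of barcodes per mouse under the bar (23 to 56). Blue, the unnamed sub-cluster 4, takes 31.3% to 55.1%, and the brown, red, orange and pink somatic sub-clusters take much of the rest in every mouse.

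X-linked genes gave 1.71%, 2.18% and 2.08% of the summed UMIs in controls and 1.97%, 1.84% and 1.55% in nicotine mice, with overlap (exact permutation p = 0.4). Y-linked genes gave 0.0301%, 0.0455% and 0.0463% in controls and 0.0666%, 0.0673% and 0.0538% in nicotine mice. The Y shares did not overlap (0.0406% ± 0.00909 against 0.0626% ± 0.00762, exact permutation p = 0.1). Without the 89 barcodes of high somatic share the Y means were 0.0636% and 0.0835%, still without overlap. With pachytene genes allowed up to 0.2%, a setting chosen after the data were seen, they were 0.0489% and 0.0565% and the groups overlapped (exact permutation p = 0.3). Early spermatocyte-like sub-cluster 7, with the Y-linked gene Zfy2 among its leading 10 genes, had the highest Y share of the 8 sub-clusters, 0.139%, and held 1, 3 and 4 control and 3, 3 and 5 nicotine barcodes. Within sub-cluster 4 alone the Y shares were 0.0364%, 0.0579% and 0.0586% in controls and 0.0785%, 0.0656% and 0.0615% in nicotine mice. They did not overlap (exact permutation p = 0.1). With at least 5000 UMIs the means over all sub-clusters were 0.0283% and 0.0696%, also without overlap. The part of the sub-cluster makeup in the Y difference was not tested.

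Nicotine was next compared with control gene by gene on the sums of all 228 barcodes, 1 sum per mouse, with the quasi-likelihood test of edgeR and Benjamini-Hochberg adjustment. Of 3969 genes tested, 2 passed an adjusted p of 0.05 (0.0504% of those tested), both lower with nicotine, and 243 had an unadjusted p under 0.05. Both are mainly somatic transcripts in this set. DESeq2 called 7 of the 4664 genes to which it gave an adjusted p.

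Fhl2, which encodes a LIM-domain cofactor, had 122.0, 119.6 and 99.98 CPM in the control mice and 0, 10.1 and 5.78 CPM in the nicotine mice. The groups were far apart and did not overlap. Its log2 fold change was -4.08 ± 0.62 (SE), with an edgeR adjusted p of 0.00737. The counts behind it were 59 UMIs in controls and 3 in nicotine mice, a 17.5-fold ratio whose exact 95% interval for counting error ran from 5.72 to 87.5. Of the 62 Fhl2 UMIs, 56 came from stromal-like sub-cluster 1, which held 13 control and 5 nicotine barcodes. Atf3, a stress-induced transcription factor gene, had 136.4, 175.4 and 99.98 CPM in controls and 9.52, 35.2 and 23.1 CPM in nicotine mice, again without overlap. It fell by 2.45 ± 0.45 on the log2 scale (edgeR adjusted p = 0.0427). All 80 of its UMIs came from the somatic sub-clusters, 54 of them from macrophage-like sub-cluster 6. No gene was called without the barcodes of high somatic share, or without the 4 somatic sub-clusters (edgeR, 130 and 156 genes at an unadjusted p under 0.05). Without control 1 or without control 2, neither Fhl2 nor Atf3 passed (Fhl2 adjusted p = 0.112 and 0.0505). Atf3 passed in 1 of the 6 fits that left out a mouse, that without control 3.

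The next smallest p-values in edgeR did not pass, and fell into 2 kinds. Cyp26b1, Egr1, Cebpd, the lipid transfer protein gene Pltp, Nr4a1 and Fos had negative values between -1.16 and -2.45, adjusted p from 0.0785 to 0.156. Between 96.5% and 98.7% of their UMIs lay in the somatic sub-clusters. The signalling transcription factor gene Egr1 had 409.2, 438.6 and 577.7 CPM in controls and 152.3, 196.0 and 219.8 CPM in nicotine mice. Fos, a component of the AP-1 factor, had 818.3, 614.0 and 825.8 against 266.5, 402.1 and 381.8 CPM. The orphan receptor gene Nr4a1 had 93.3, 79.7 and 99.98 against 28.6, 5.03 and 23.1 CPM. None of these 3 overlapped between groups, which is a description, since they were picked for a small p.

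Gm28375 and Srgap1 had positive values, and their UMIs lay in sub-cluster 4. Gm28375, a gene model of unassigned function, had 28.7, 63.8 and 55.5 CPM in controls and 199.9, 241.2 and 144.6 CPM in nicotine mice (log2 1.89 ± 0.38, edgeR adjusted p = 0.0785). Srgap1 had 35.9, 7.97 and 29.6 CPM in controls and 76.1, 125.6 and 109.9 CPM in nicotine mice (log2 1.96 ± 0.47, adjusted p = 0.156). The groups did not overlap for either gene, and both were picked for a small p. Sub-cluster 4 held 115 of 121 Gm28375 UMIs (25 control, 90 nicotine) and 57 of 66 Srgap1 UMIs (11 control, 46 nicotine), with 42 control and 55 nicotine barcodes.

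**Figure D4:**
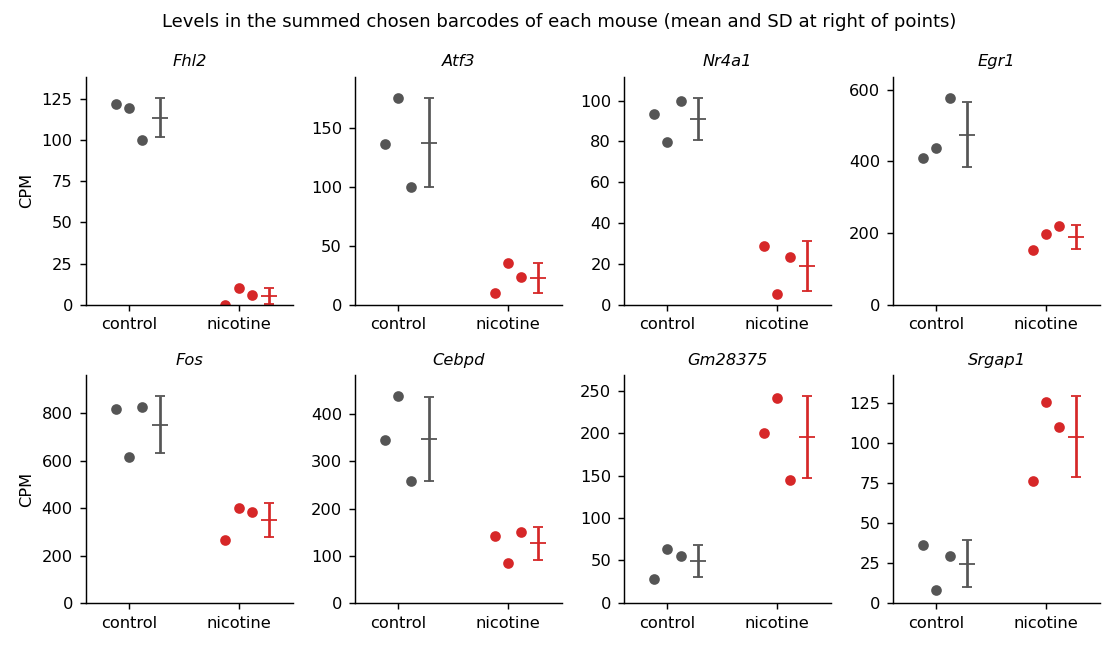
CPM in the summed low-acrosomal barcodes of each mouse (points; mean and SD to the right, n = 3 per group) for 8 of the 10 genes with the smallest p. Fhl2, Atf3, Nr4a1, Egr1, Fos and Cebpd have their 3 nicotine points below every control point, and Gm28375 and Srgap1 have them above. Fhl2 and Atf3 passed in edgeR, and DESeq2 also called Gm28375, Fos, Cebpd and Egr1 of these 8.

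Immediate early genes, which cells switch on within minutes of a stimulus, tissue handling included, had a median further from 0 than the other 15 lists. All 17 tested members had negative values, with a median log2 of -1.06 beside -0.01 over all genes. Some, such as Atf3 and Nr4a1, met the depth filter through the control mice, where they are high, which tilts this count. With no filter on low counts, 21 of 23 were negative and 4 were called in edgeR. With a mean of at least 10 CPM, 20 of 21 were negative and 0 were called. Of the 17, 14 had an unadjusted p under 0.05 and 1, Atf3, passed in edgeR. DESeq2 called 4 of the 23 listed (Atf3, Junb, Fos and Egr1), beside 7 of 4664 genes with an adjusted p. The median was -0.38 in the acrosomal band of 0.075% to 0.15%, where 13 of 14 tested were negative, and -0.57 with equal barcodes per acrosomal bin, where all 13 were. Together the 23 listed genes gave 0.689%, 0.662% and 0.653% of UMIs in controls and 0.299%, 0.350% and 0.351% in nicotine mice. The somatic sub-clusters held 93.0% of these 5169 UMIs. The part of the somatic makeup in the difference between groups was not tested. Within the 4 somatic sub-clusters the shares were 1.44%, 1.05% and 1.35% in controls and 0.640%, 1.06% and 0.837% in nicotine mice, and overlapped. Within Leydig-like sub-cluster 2 alone they were 1.39%, 1.14% and 0.805% against 0.476%, 0.574% and 0.744%, without overlap, on 17 and 19 barcodes. In the somatic sub-clusters without the Leydig-like one (52 barcodes) they were 1.48%, 0.929% and 2.01% against 1.08%, 1.47% and 1.45%, and overlapped. In sub-cluster 4 the list gave 0.0588%, 0.0477% and 0.0710% in controls and 0.0673%, 0.116% and 0.0834% in nicotine mice. There the nicotine mean was the higher and the groups overlapped. Of the AP-1 genes, Jun had 726.6 ± 33.9 CPM in controls and 363.5 ± 72.2 CPM in nicotine mice, and Junb 708.4 ± 96.6 against 345.6 ± 23.8 CPM. The feedback genes Dusp1 and Zfp36 had 358.2 ± 34.7 against 177.4 ± 14.7 CPM and 238.7 ± 6.64 against 104.4 ± 19.1 CPM. Of these 4, none passed in edgeR and DESeq2 called Junb.

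No member of the other 15 lists passed in edgeR. Among flagellum and axoneme genes, 25 of 41 tested had positive values (median 0.16); Ift81, a subunit of the intraflagellar transport machinery, had 88.8 against 173.5 CPM (adjusted p = 0.802). Among spermatid transcription regulators 9 of 18 were positive (median 0.02). Among acrosome and fusion genes outside the rule, 5 of 13 were positive (median -0.09), and the secretory protein gene Crisp2 had 1612 against 992 CPM (adjusted p = 0.888). Among chromatoid body and RNA storage genes 10 of 24 were positive (median -0.12). There the piRNA helicase gene Mov10l1 had 57.7 against 134.5 CPM and the Tudor gene Tdrd6 130.2 against 74.6 CPM (adjusted p = 0.464 and 0.689). Cytosolic ribosomal protein genes had 33 of 38 negative values (median -0.22), with 2 unadjusted p-values under 0.05. Their summed share in the 4 sub-clusters outside the somatic ones had the other direction, at 1.80%, 1.22% and 1.63% of UMIs in controls and 1.82%, 1.94% and 1.89% in nicotine mice, without overlap. In sub-cluster 4 alone the shares overlapped, at 1.64%, 0.784% and 1.41% in controls and 0.983%, 1.70% and 1.26% in nicotine mice. Germ cell energy isozymes had 12 of 18 negative values, and ubiquitin and proteasome genes 15 of 20. Of the nicotinic receptor subunits, 1 of 16, Chrne, had enough UMIs to be tested, at 72.0 against 59.1 CPM (adjusted p = 0.965). Chrna10 had 0 UMIs in the set, and 0 of 1011663 UMIs allows up to 3.

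Genes of spermatid differentiation differed in their spread between mice. The general transcription factor gene Tbpl1 had 674.8, 295.0 and 314.8 CPM in controls and 314.1, 557.9 and 451.2 CPM in nicotine mice, and Crem had 222.5, 255.2 and 255.5 against 199.9, 281.4 and 243.0 CPM. Both overlapped. The bromodomain gene Brdt had 86.1, 103.7 and 96.3 against 180.8, 180.9 and 121.5 CPM (log2 0.68 ± 0.34, edgeR adjusted p = 0.845), without overlap. Smcp ranged from 1652 to 6525 CPM in controls and from 438 to 3438 CPM in nicotine mice, and Odf1, an outer dense fibre gene, from 237.0 to 674.8 and from 66.6 to 407.1 CPM. Both were lowest in nicotine 1, which held no elongating spermatid-like barcode; the controls held 4, 3 and 2, and the other nicotine mice 3 and 2. Tssk6 (691.0 ± 320.7 against 395.8 ± 221.2 CPM), the glycolytic isozyme gene Pgk2 (310.9 ± 184.3 against 115.3 ± 67.3 CPM), the lactate dehydrogenase gene Ldhc (2384 ± 447 against 2263 ± 424 CPM) and the antioxidant selenoprotein gene Gpx4 (743.4 ± 225.1 against 588.8 ± 72.9 CPM) overlapped between groups. So did the X-linked gene Slxl1, at 96.0 ± 49.5 against 85.8 ± 26.2 CPM. Catsper3 (28 and 19 UMIs) and the Y-linked multicopy gene Sly (2 and 6 UMIs), whose near-identical copies make its count uncertain, were too low to be tested.

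The median mitochondrial share was 1.98% in the low-acrosomal and 0.0223% in the high-acrosomal barcodes. It was 0.349% in the division barcodes, and 3.39% in those that met the same rule but with an acrosomal share under 0.05%. By sub-cluster the medians ran from 0.0887% (elongating spermatid-like) to 10.9% (Sertoli-like), with 4.83% in Leydig-like sub-cluster 2 and 0.666% in sub-cluster 4. Per mouse the medians over all low-acrosomal barcodes were 0.583%, 1.80% and 1.72% in controls and 3.16%, 1.97% and 2.51% in nicotine mice. The groups did not overlap (1.37% ± 0.681 against 2.55% ± 0.599, exact permutation p = 0.1). With at least 5000 UMIs the direction turned (3.65% against 3.47%, exact permutation p = 1), and with pachytene genes allowed up to 0.2% the groups overlapped (exact permutation p = 0.3). In sub-cluster 4 they lay further apart: 0.126%, 0.0615% and 0.227% in controls against 2.72%, 2.02% and 0.979% in nicotine mice (exact permutation p = 0.1). At least 2% of UMIs were mitochondrial in 1 of 10, 1 of 10 and 3 of 22 control barcodes and in 5 of 8, 14 of 27 and 8 of 20 nicotine barcodes of sub-cluster 4. Within the 4 somatic sub-clusters the summed mitochondrial shares overlapped, at 2.29%, 3.64% and 4.84% in controls and 5.62%, 3.37% and 4.64% in nicotine mice.

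In an edgeR test on sub-cluster 4 alone, a setting chosen after the data were seen, 8 of 1218 genes passed (0.657% of those tested; 69 at an unadjusted p under 0.05), and all 8 were mitochondrial mRNAs higher with nicotine. They were all the mitochondrial genes deep enough to be tested. Of them mt-Nd2, mt-Nd4 and mt-Cytb met the depth filter through the nicotine mice, where they are high, so the full count is no added support. Among the mitochondrial genes not tested, mt-Nd5, mt-Nd6 and mt-Atp8 overlapped between groups, and mt-Nd3 and mt-Nd4l did not. The ATP synthase subunit gene mt-Atp6 had 728.2, 715.6 and 1443 CPM in controls and 11477, 5680 and 3630 CPM in nicotine mice, a log2 fold change of 2.83 ± 0.44 (SE, adjusted p = 9.35e-05). The cytochrome oxidase genes mt-Co1, mt-Co2 and mt-Co3 rose by 2.31, 2.42 and 2.64, the complex I genes mt-Nd1, mt-Nd2 and mt-Nd4 by 2.09, 2.73 and 2.08, and mt-Cytb of complex III by 2.35 on the log2 scale. None of these 8 overlapped between groups, which is a description, since they were picked by the same values that the test used. The richest barcode held 389 of the 1111 mitochondrial mRNA UMIs of nicotine 1, 263 of 2351 in nicotine 2 and 153 of 1052 in nicotine 3. In the control mice the richest held 65 of 134, 113 of 131 and 96 of 524 such UMIs. In nicotine 1, barcodes of 2581 and 3563 UMIs had mitochondrial shares of 12.05% and 10.9%, beside a median of 2.72%. The part of such rich barcodes in the difference between groups was not tested. Over all 228 members none of the 12 tested mitochondrial genes passed (median log2 0.28). Median UMIs per barcode in sub-cluster 4 were 3106 ± 89 in controls and 2947 ± 314 in nicotine mice, and 2 of its 97 barcodes had somatic markers of at least 0.5%.

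**Figure D5:**
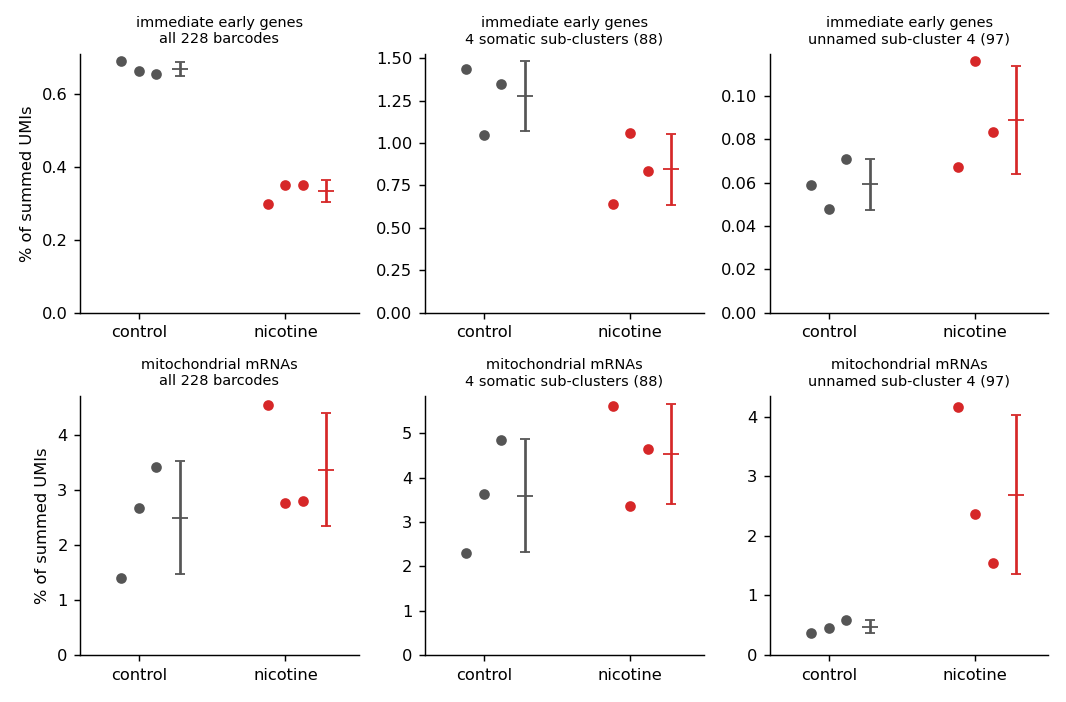
Percent of summed UMIs from the 23 immediate early genes (upper row) and from the 13 mitochondrial mRNAs (lower row) in each mouse, for all 228 barcodes, for the 88 in somatic sub-clusters and for the 97 of sub-cluster 4; bars give mean and SD, n = 3 per group, and the vertical scales differ. Immediate early shares separate the groups over all barcodes but not in the middle and right panels, and of the lower panels the right one alone separates them.

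The nicotine effect was then compared with that in the high-acrosomal barcodes of the same mice, with the mouse as a block and the interaction of gate and group as the tested term. Of 16707 genes, 16 passed in edgeR (0.0958%), 13 with a higher and 3 with a lower nicotine effect in the low-acrosomal barcodes; scaling by DESeq2-type size factors gave 11 and 5. None was called with a filter of at least 10 CPM (598 genes at an unadjusted p under 0.05) or with barcodes thinned to 2500 UMIs (537 genes). Within the high-acrosomal barcodes no gene of 15935 passed (645 at an unadjusted p under 0.05). Gm10754, a gene model whose UMIs lay to 93.4% in sub-cluster 4, had 258.4, 71.8 and 229.6 CPM in controls and 428.3, 854.4 and 399.2 CPM in nicotine mice. In the high-acrosomal barcodes it had 49.8 ± 7.28 against 51.3 ± 0.767 CPM, and its effects differed by 1.51 ± 0.31 (adjusted p = 0.00193). For Nr4a1 and Fhl2 the low-minus-high differences of the effect were -2.57 ± 0.58 and -4.005 ± 0.94 (adjusted p = 0.0125 and 0.0231). In the high-acrosomal barcodes Nr4a1 had 25.3 ± 2.56 against 27.1 ± 3.72 CPM.

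Several of the other called genes, chosen after their values were seen, were Leydig transcripts whose groups overlapped in the low-acrosomal barcodes. In the high-acrosomal ones they were at trace level, with the lower mean in nicotine mice. Insl3 had 1154 ± 194 against 1006 ± 400 CPM in the low-acrosomal barcodes and 5.30 ± 4.12 against 0.998 ± 0.537 CPM in the high-acrosomal barcodes. Cyp17a1 had 1741 ± 647 against 1462 ± 528 CPM, and 5.26 ± 3.11 against 1.11 ± 0.375 CPM. Per mouse, Insl3 in the high-acrosomal barcodes had 9.49, 5.16 and 1.25 CPM in controls and 0.604, 0.779 and 1.61 CPM in nicotine mice, which overlapped. Barcodes with somatic markers of at least 0.5% made 0.591%, 0.350% and 0.371% of the high-acrosomal control barcodes. In nicotine mice they made 0.134%, 0.133% and 0%. Leydig markers gave 0.00728%, 0.00453% and 0.00154% of high-acrosomal UMIs in controls and 0.00116%, 0.00116% and 0.00150% in nicotine mice. The part of trace Leydig RNA in these calls was not tested.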

How the data were processed

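The deposited values were whole-number UMI counts per gene and barcode, produced by the authors' run of Cell Ranger 7.2.0 on GRCm38 (mm10), per the submitters' processing notes; they are not normalized. The authors' barcode calling: not given in the sources used. The rule was applied to all 6 matrices, and the members and gene lists were chosen with earlier results of these data known. UMIs were summed per mouse and tested with edgeR 4.0.16 (filterByExpr, TMM, robust quasi-likelihood, Benjamini-Hochberg adjusted p under 0.05 over all genes tested); DESeq2 1.42.0 was an alternative. Mice are separate animals. For single values a permutation test over mice was used, exact and two-sided. Sub-clusters came from scanpy 1.11.5 (2000 variable genes, 30 components, 15 neighbours, Leiden resolution 0.5) and were named from at least 3 markers raised by at least 1 log2 unit in at least 10% of barcodes, with at least 1 of them among the 10 leading genes. Scrublet scores marked doublets, at 0.8% per 1000 barcodes: 20 members (8.77%) scored high and were kept. Spans and chromosomes came from the GRCm38 annotation. Genes were named by rule: called genes with at least 20 CPM, or, with few called, the 10 smallest p; up to 8 per direction between sets, at 50 CPM or more and of 1 direction in 6 mice; and a fixed list of 13. On simulated data for the nicotine test (4050 genes), 1.72%, 33.3% and 88.9% of 1.5-, 2- and 4-fold changes were called, and 3 of 70 calls were wrong. Deviations of mice with the same replicate number correlated at -0.21, -0.06 and -0.12, so the numbers were not taken to pair mice.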

Additional observations from a re-analysis of the deposited data

Results flagged for a closer look

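The tests of the difference between the nicotine effect in the low-acrosomal and in the high-acrosomal barcodes picked out 16 genes (edgeR interaction term), given as log2 differences. Among genes high in Leydig-like sub-cluster 2, the values were 1.95 for Insl3, 1.80 for Cyp17a1, 1.18 for Fabp3, 1.48 for Ptgds and 1.76 for Akr1cl, and 2.56 for the apolipoprotein gene Apoc1. The glutathione transferase genes had 1.53 for Gstm1, 1.75 for Gstm2 and 2.75 for Gsta3. The matrix gene Dcn had 2.45, the synaptonemal complex gene Sycp3 1.33, and the gene models Gm10754 and A830018L16Rik 1.51 and 2.36. Fhl2 and Nr4a1 had -4.00 and -2.57. Cngb3, a cyclic nucleotide-gated channel gene, had 18 UMIs in control and 0 in nicotine members, all in sub-cluster 4; taken against a floor of 3 UMIs over the nicotine group it was at least 5.35-fold lower. Its fitted value of -9.64 depends on the prior count and is no bound. Groups of 3 mice were too small for a test of single outlying samples.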

How the results depend on the processing

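Depth and number of barcodes limit every value here: the sums per mouse were small, and the self-test called few 1.5-fold changes. The number of genes called, 2 of 3969 over all members, became 7 of 4664 with DESeq2 and 23 of 20775 with no filter on low counts (19 lower). In sub-cluster 4 alone it was 8, and neither Fhl2 nor Atf3 was among them. Fhl2 was the 1 call with a mean of at least 10 CPM, no high doublet scores, thinning to 2500 UMIs, or equal barcodes per acrosomal bin. With at least 5000 UMIs the 1 call was another gene, Tmsb4x. The number was 0 each with the replicate block, an acrosomal share of 0.075% to 0.15%, no barcodes of high somatic share, equal barcodes per mouse, or no somatic sub-clusters. Leaving out 1 mouse gave 0 to 9 calls, and the 9 came without control 3. Replicate numbers share only a number between groups, and with the block Fhl2 had an adjusted p of 0.0699 and Atf3 0.0876. The 16 interaction calls became 0 with at least 10 CPM or with thinning, and 1 to 28 when 1 mouse was left out. With barcodes of at least 10000 UMIs neither test could be fitted, since nicotine 3 had none. Log2 ratios of nicotine over control turned sign as follows. The share of barcodes, -0.01, became 0.20 with at least 5000 UMIs, 0.42 in the narrow acrosomal band, 0.28 without barcodes of high somatic share, 0.44 in sub-cluster 4, 0.089 with pachytene genes under 0.2% and 0.18 over low- plus high-acrosomal barcodes; leaving out 1 mouse gave -0.27 to 0.34. Median UMIs, -0.01, became 0.046 without barcodes of high somatic share and -0.049 to 0.034 leaving out 1 mouse. Without barcodes of high somatic share the X share turned from -0.16 to 0.13. With at least 5000 UMIs the median mitochondrial share turned from 0.90 to -0.073, and leaving out 1 mouse it ran from 0.53 to 1.14. Leaving out 1 mouse gave 0.45 to 0.73 for the Y share, -0.25 to -0.06 for the X share and -0.56 to -0.34 for the share of members with somatic markers. Genes near 0 also turned: Crem to 0.084, 0.091 and 0.035 when thinned, with equal barcodes per mouse and per bin; Tbpl1 to 0.42, 0.13 and 0.062 in the same order and 0.071 with the block; Ldhc to 0.10 in the narrow band, 0.11 with equal barcodes and 0.044 in sub-cluster 4; Odf1 to 0.023 with equal barcodes; and Gpx4 to 0.070 in sub-cluster 4. When 1 mouse was left out, Crem ran from -0.19 to 0.020, Tbpl1 from -0.22 to 0.48, Ldhc from -0.31 to 0.027 and Slxl1 from -0.58 to 0.10. The cause of these changes was not tested. The sub-cluster settings and the wider pachytene limit were chosen after seeing the data.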
